A study of Homo sapiens with 12 samples.

Results

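SLC37A2 encodes a sugar-phosphate transporter of the endoplasmic reticulum, and its transcript has a cassette exon close to the end of the reading frame. All listed splicing events whose middle exon matched an annotated SLC37A2 exon were taken, which gave 1 event of 8712 listed in any library. That event was listed in all 12 libraries, as were 4992 events in all. The exon had been picked for its inclusion levels in these same libraries, so differences in inclusion are given as a description, without a test. The numbers of reads on the event were tested. Earlier results of these data were known when the exon was picked, so these tests may not be independent of that choice.

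RNA was sequenced from MCF10A, an established line of non-tumorigenic human breast epithelial cells. TIP60, the product of KAT5, is a lysine acetyltransferase that modifies histones and other proteins. Derivatives of MCF10A stably carried a wild-type TIP60 construct that escapes the siRNA, a resistant construct whose TIP60 is catalytically dead, or the empty vector MSCV. Each received TIP60 siRNA or control siRNA and was harvested 72 h later. The 6 groups were therefore wild-type TIP60 with TIP60 siRNA and with control siRNA, catalytically dead TIP60 with TIP60 siRNA and with control siRNA, and empty vector with TIP60 siRNA and with control siRNA, each with 2 libraries. All groups retained the cells' own KAT5 gene, and the labels do not say whether a derivative was 1 clone or a pool. They do not say either that the libraries of a group came from separate cultures, so that p-values measure the spread between these libraries, which may be technical.

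A cassette exon is kept in or skipped from the mature transcript according to how well the spliceosome recognises its splice sites, helped or hindered by RNA-binding proteins and by the pace and chromatin of transcription. SLC37A2 belongs to the SLC37 family, whose best known member, SLC37A4, carries glucose 6-phosphate into the endoplasmic reticulum. SLC37A2 exchanges sugar phosphates for inorganic phosphate and is known for its abundance in macrophages and in bone-resorbing osteoclasts. An exon that holds the stop codon sets the last residues of the protein, and skipping it moves the stop into the next exon.

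SLC37A2 (ENSG00000134955.11) spans positions 125063067 to 125090312 of chromosome 11, plus strand (hg38, GENCODE release 29). The cassette exon is chr11:125086204-125086260, 57 nt long, and is exon 18 of 19 in a protein-coding transcript (ENST00000308074.4). It lies 185 nt after an exon of 65 nt and 1858 nt before a last exon of 1525 nt. Its first 25 bases are coding, the stop codon occupies 125086229 to 125086231, and the remaining 29 bases belong to the 3′ UTR. Another protein-coding transcript (ENST00000403796.6) has 18 exons and skips it. There the frame continues for 13 bases into the last exon and stops at 125088132 to 125088134. The reading frames have 505 codons with the exon and 501 without it.

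The ends of the 2 reading frames are shown because they are what exchanging the forms alters in the coding sequence. Both start with the last 2 bases of the upstream exon, and capitals mark the stop codon. The splice sites of the exon are shown because they are what the spliceosome must recognise to keep it. There capitals mark the outermost 2 intron bases, in chr11:125086186-125086206 for the 3′ splice site and chr11:125086258-125086269 for the 5′ splice site. All were read from GENCODE 29 transcripts on the plus strand of hg38.
End of the frame with the exon: ggctctagtatggtcctaacccaccagTGA
End of the frame without the exon: gggtataaagaaataTGA
3′ splice site: ccccgtgtatctctatAGctc
5′ splice site: tttGTgagtatt

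**Figure D1:**
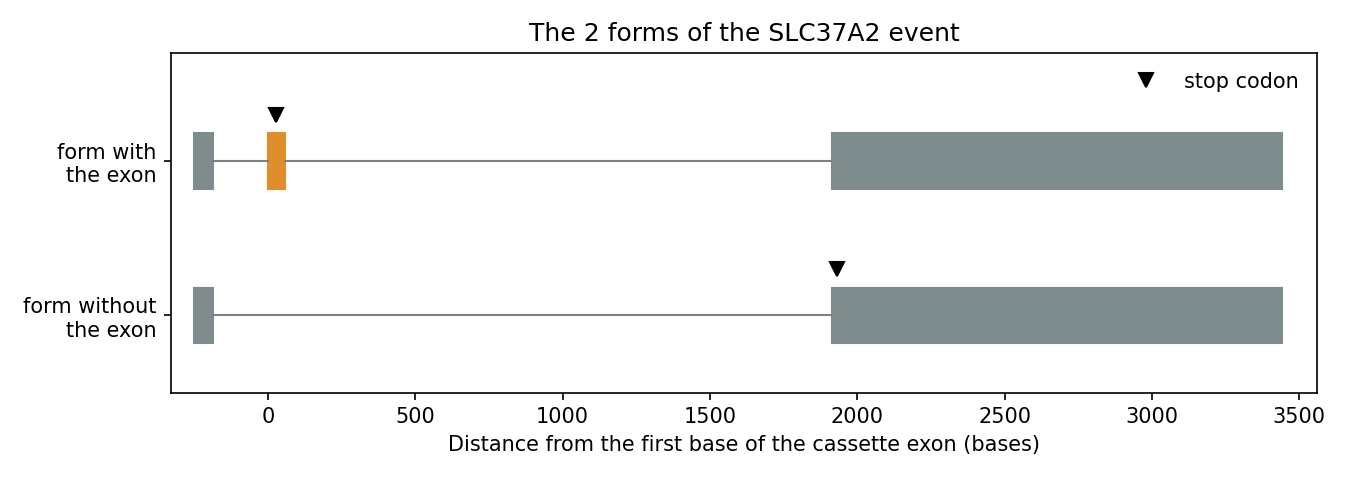
Map of the SLC37A2 event drawn to scale, in bases from the first base of the cassette exon. Boxes are exons, the cassette exon is orange, lines are introns and triangles mark the stop codon, which lies inside the 57 nt exon in the form with it and near the start of the 1525 nt last exon in the form without it.

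The libraries numbered 1 held 1983221 to 2280488 reads that fitted at least 1 form of a listed event, against 1277953 to 1566296 in those numbered 2, and both sets held all 6 groups. On the SLC37A2 event, reads that fitted neither form were 27.4% to 32.0% of the total in the libraries numbered 1 and 43.3% to 53.3% in those numbered 2. Over all events the corresponding shares were 50.1% to 53.2% and 64.5% to 65.7%. Of 13 epithelial markers, 5 had a listed event (CDH1, TP63, ESRP1, LAMA3 and ITGB4). Their summed event reads came to 2445 to 4531 per 1000000 fitting reads (RPM) over the 12 libraries. The mesenchymal markers with a listed event summed to 21.9 to 2490.3 RPM. Such sums depend on which markers have a listed event, so they do not settle the epithelial label. Of 7 immune markers, CSF1R and LYZ were listed and summed to at most 31.4 RPM.

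The siRNA target was read from KAT5 first. Reads that fitted only the form of KAT5 with its cassette exon numbered 6 and 2 with TIP60 siRNA against 23 and 8 with control siRNA in the wild-type line. They numbered 9 and 0 against 25 and 10 in the catalytically dead line, and 5 and 2 against 37 and 8 in the empty-vector line. In each same-number pair the TIP60-siRNA library had fewer. Reads that fitted only the form without the exon numbered 3618 and 115 with TIP60 siRNA and 4543 and 140 with control siRNA in the wild-type line. They numbered 2019 and 36 against 2054 and 55 in the catalytically dead line, and 5 and 0 against 18 and 1 in the empty-vector line. Under TIP60 siRNA the catalytically dead line therefore had fewer such reads than the wild-type line in both sets, and the part of that difference in the results on SLC37A2 was not tested. These are raw numbers, not scaled for depth, and a small part of the reads on the KAT5 event. There, reads that fitted neither form were 70.7% to 83.7% of the total in the libraries numbered 1 and 95.2% to 99.6% in those numbered 2.

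The first question was whether the resistant wild-type construct, and not the dead one, kept the SLC37A2 exon at its level when TIP60 siRNA was given. The deposited inclusion level is the estimated share of the event's transcripts that carry the exon. In the wild-type line the exon stood at 0.64 in both TIP60-siRNA libraries (95% intervals 0.53 to 0.74 and 0.44 to 0.82), against 0.70 and 0.53 in the control libraries (0.57 to 0.82 and 0.30 to 0.77). The TIP60-siRNA values lay between the control values, and all 4 intervals overlapped.

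In the catalytically dead line inclusion was 0.13 and 0.15 with TIP60 siRNA (intervals 0.09 to 0.17 and 0.09 to 0.22), against 0.40 and 0.57 with control siRNA (0.29 to 0.51 and 0.30 to 0.84). In the empty-vector line it was 0.12 and 0.20 with TIP60 siRNA (0.07 to 0.18 and 0.12 to 0.31), against 0.58 and 0.68 with control siRNA (0.46 to 0.71 and 0.46 to 0.88). In both of these lines every TIP60-siRNA interval lay below every control interval. The lower bound of each wild-type TIP60-siRNA interval also lay above the upper bounds of the 4 TIP60-siRNA intervals of the other lines.

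**Figure D2:**
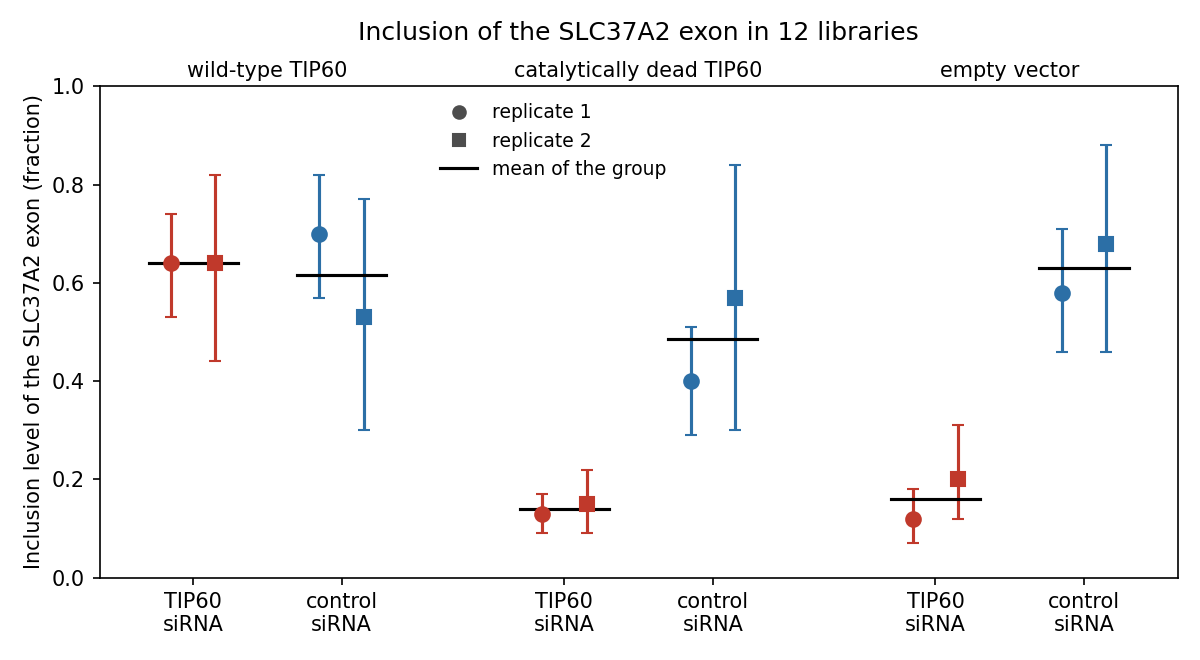
Inclusion level of the SLC37A2 exon (fraction of transcripts with the exon) in the 12 libraries, by construct and siRNA. Points are posterior means, bars their 95% intervals and black lines the group means of 2 libraries; TIP60-siRNA libraries of the wild-type line are both at 0.64, while those of the catalytically dead and empty-vector lines lie between 0.12 and 0.20.

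Mean inclusion was 0.64 ± 0 with TIP60 siRNA and 0.615 ± 0.120 with control siRNA in the wild-type line (SD, n = 2 for every group; the deposited values have 2 decimals). It was 0.14 ± 0.0141 and 0.485 ± 0.120 in the catalytically dead line, and 0.16 ± 0.0566 and 0.63 ± 0.0707 in the empty-vector line. The differences between TIP60 siRNA and control siRNA were 0.025, -0.345 and -0.47 in that order of lines, each with a standard error of 0.0744 from the model over all libraries. The siRNA difference of the wild-type line exceeded that of the empty-vector line by 0.495 (SE 0.105), and that of the catalytically dead line exceeded it by 0.125 (SE 0.105).

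Among the 2695 events with enough reads for a comparison, no event had a larger absolute difference between wild-type and empty-vector siRNA effects. The same held of the wild-type minus the catalytically dead line under TIP60 siRNA, where inclusion differed by 0.50. In the siRNA comparison itself 3 events had a larger absolute difference in the empty-vector line and 14 in the catalytically dead line. These contrasts are the ones the exon was picked on, so its rank describes the choice. Under control siRNA the lines were closer to each other, with differences from the empty-vector line of -0.015 in the wild-type line and -0.145 in the catalytically dead line. Both control libraries of the catalytically dead line, at 0.40 and 0.57, lay below those of the empty-vector line, at 0.58 and 0.68. The value of 0.57 rested on 12 reads that fitted only 1 form (interval 0.30 to 0.84). The share of such reads with the exon was 0.917 there, above the 0.707 and 0.882 of the empty-vector controls.

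Intervals that did not overlap were counted over all events as background. TIP60-siRNA intervals lay wholly below control intervals for 29 of 2695 events in the catalytically dead line (1.08%) and for 19 in the empty-vector line (0.705%). Both held together, with overlap in the wild-type line, for 8 events (0.297%). SLC37A2 was 1 of these 8, and the only one (0.0371%) whose wild-type TIP60-siRNA intervals also lay above those of both other lines. The others lay in CD46, DIAPH1, GUK1, MAZ, MFGE8, RBM14-RBM4 and SIRT3, named after their values were seen. The rule used these contrasts, and nothing is read from the counts.

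The reads behind the levels also set apart the TIP60-siRNA libraries of the catalytically dead and empty-vector lines. They did not follow the order of the levels library by library. With TIP60 siRNA, 62 and 19 reads in the wild-type line fitted only the form with the exon and 21 and 4 only the form without it. With control siRNA the numbers were 39 and 9 with the exon and 9 and 3 without it. In the catalytically dead line TIP60 siRNA gave 37 and 14 reads with the exon and 154 and 38 without it, and control siRNA gave 31 and 11 with and 30 and 1 without. In the empty-vector line TIP60 siRNA gave 15 and 15 reads with the exon and 61 and 27 without it, and control siRNA gave 41 and 15 with and 17 and 2 without. The reads without the exon were the more numerous class in the 4 TIP60-siRNA libraries of the catalytically dead and empty-vector lines and in none of the other 8. Control library 2 of the catalytically dead line had the highest share with the exon, 0.917 of 12 such reads, at an inclusion level of 0.57.

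Summed over the libraries of a group, the exon took 76.4% of 106 isoform-specific reads with TIP60 siRNA (Wilson 95% interval 67.5% to 83.5%) and 80.0% of 60 with control siRNA (68.2% to 88.2%) in the wild-type line. In the catalytically dead line it took 21.0% of 243 (16.3% to 26.5%) and 57.5% of 73 (46.1% to 68.2%). In the empty-vector line it took 25.4% of 118 (18.4% to 34.0%) and 74.7% of 75 (63.8% to 83.1%). These intervals cover counting error only. The shares exceed the inclusion levels. The form with the exon offers 2 junctions and the exon itself to specific reads, and the other form a single junction. How much of the gap this accounts for was not tested.

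The second question was whether the reads on the event moved with inclusion. Event reads are the reads that fitted at least 1 form, per 1000000 such reads of the library. They are dominated by reads that fit both forms (91.3% to 96.9% of them), and so measure mostly the shared flanking exons; they are no gene count. In the catalytically dead line they came to 1254 and 988 RPM with TIP60 siRNA, against 349 and 246 RPM with control siRNA. In the empty-vector line they came to 780.0 and 739.9 RPM against 318 and 215 RPM. In the wild-type line they came to 435 and 266 RPM against 288 and 162 RPM. The siRNA groups were apart by a wide margin in the catalytically dead and empty-vector lines and overlapped in the wild-type line, where the TIP60-siRNA library was nevertheless the higher of each same-number pair.

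Within same-number pairs the ratio of TIP60 siRNA to control siRNA was 1.51 and 1.64 in the wild-type line, 3.60 and 4.02 in the catalytically dead line, and 2.45 and 3.45 in the empty-vector line. The log2 differences in event reads were 0.65, 1.92 and 1.54 in that order of lines, each with a standard error of 0.41 without a replicate term and 0.21 with the replicate number as a block. Without the block limma called none of the 4992 events in any line (0%), although 94, 233 and 238 had an unadjusted p under 0.05, and a fit with voom weights called none either. The adjusted p-values of SLC37A2 in that limma fit were 1.00, 0.601 and 0.599. The replicate numbers pair the libraries, and with them as a block SLC37A2 rose in the catalytically dead line (limma adjusted p = 0.00302) and in the empty-vector line (adjusted p = 0.00866), in 2 of 2 pairs each. In the wild-type line the block gave a limma adjusted p of 0.357.

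With the block limma called 142 of 4992 events in the catalytically dead line (2.84%), of which 43 were higher (0.861%) and 99 lower (1.98%). It called 154 in the empty-vector line (3.08%), of which 50 were higher (1%) and 104 lower (2.08%), and 1 in the wild-type line (0.02%), which was lower. A larger rise than that of SLC37A2 was found for 12 events in the catalytically dead line, 43 in the empty-vector line and 290 in the wild-type line. The median event differed by -0.14, -0.09 and -0.05 on the log2 scale in these lines, catalytically dead first and wild-type last, and by 0.00, 0.03 and 0.02 when libraries were scaled by the median of ratios. Relative to either median SLC37A2 stood higher in all 3 lines. With that scaling and the block its differences were 2.07 (limma adjusted p = 0.00270) and 1.65 (adjusted p = 0.0104) in the catalytically dead and empty-vector lines.

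**Figure D3:**
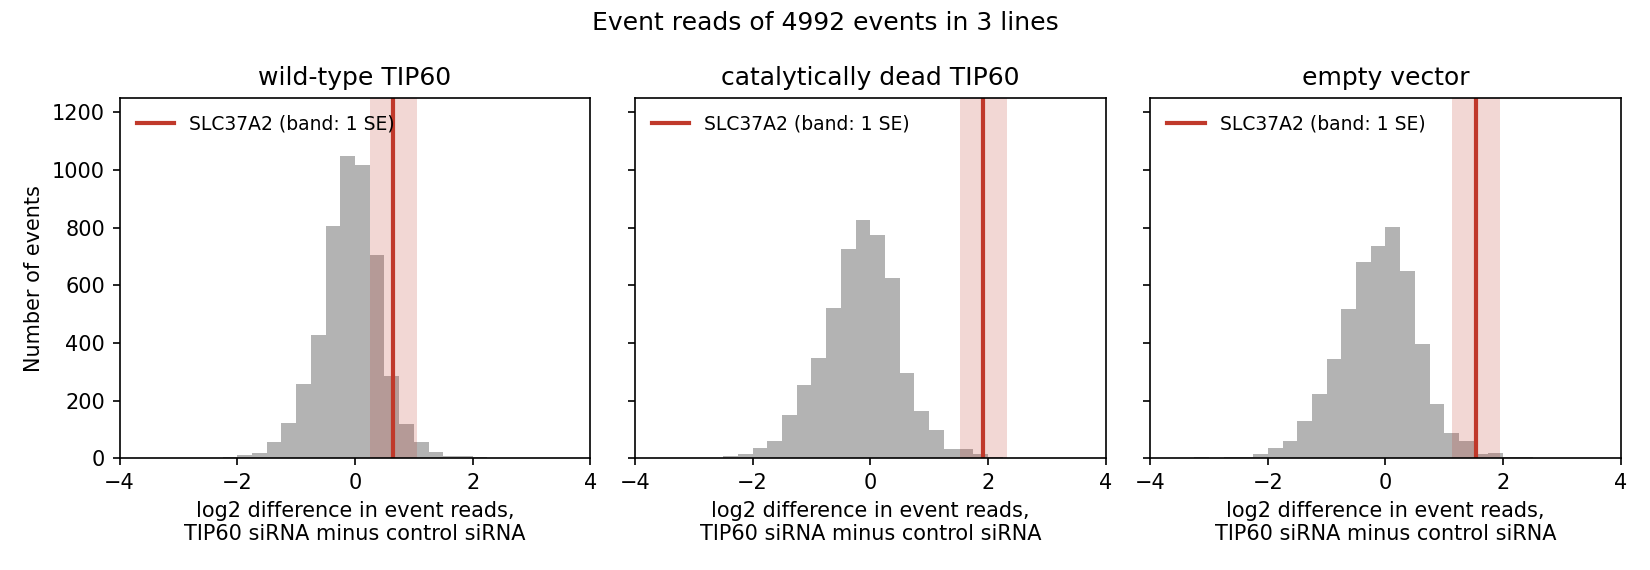
Histograms of the log2 difference in event reads, TIP60 siRNA minus control siRNA, over the 4992 events listed in all libraries, for each line. The red line is SLC37A2 with a band of 1 SE (0.41, fit without the block), at 0.65 in the wild-type line, 1.92 in the catalytically dead line and 1.54 in the empty-vector line.

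Whether the siRNA effect differed between lines was tested as a difference of differences. The siRNA effect on event reads was smaller in the wild-type than in the empty-vector line by 0.89 on the log2 scale (SE 0.57, limma adjusted p = 1.00 without the block and 0.999 with it). It was larger in the catalytically dead than in the wild-type line by 1.27 (SE 0.57, limma adjusted p = 1.00 in both fits), and with the block it ranked 3 of 4992 events by p. Neither difference passed the correction over all events, so a rise limited to the lines without active resistant TIP60 was not shown. Under TIP60 siRNA alone, event reads in the wild-type line were below those in the catalytically dead line by a log2 difference of -1.71, called with the block (limma adjusted p = 0.0485; 1 of 4992 events, 0.02%) and not without it (adjusted p = 1.00). The wild-type line was also below the empty-vector line, by a log2 difference of -1.16, which was not called with the block (limma adjusted p = 0.239). Under control siRNA the log2 differences from the empty-vector line were -0.27 in the wild-type and 0.16 in the catalytically dead line, under 1 SE each without the block (SE 0.41; 0.21 with it), and neither was called in either fit.

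Leaving out 1 library at a time, with the block, kept the rise in the empty-vector line past the threshold in 12 of 12 fits (limma adjusted p from 0.00998 to 0.0388). The rise in the catalytically dead line passed in 10 of 12, and was not called without its control library 1 (adjusted p = 0.0926) or its control library 2 (adjusted p = 0.0613). Its log2 difference was 1.92 and 1.93 in these fits. The difference between wild-type and catalytically dead lines under TIP60 siRNA passed in only 2 of 12 (adjusted p from 0.0121 to 0.790).

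Multiplying event reads by inclusion divides them between the forms, a description that carries the choice of the exon. The form without the exon had 1091 and 839 RPM with TIP60 siRNA against 209 and 106 RPM with control siRNA in the catalytically dead line. It had 686 and 592 RPM against 134 and 68.7 RPM in the empty-vector line, and 157 and 95.7 RPM against 86.5 and 76.2 RPM in the wild-type line. The ratio of group means was 6.13 in the catalytically dead, 6.31 in the empty-vector and 1.55 in the wild-type line.

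The form with the exon had 163 and 148 RPM with TIP60 siRNA against 139 and 140.1 RPM with control siRNA in the catalytically dead line. It had 93.6 and 148 RPM against 185 and 146 RPM in the empty-vector line, and 278 and 170 RPM against 202 and 85.9 RPM in the wild-type line. The ratios of group means were 1.11, 0.730 and 1.56 in that order, and the empty-vector pairs gave 0.507 and 1.01. So in the catalytically dead and empty-vector lines the lower inclusion went with a several-fold higher level of the form without the exon, while the group mean of the form with it stayed within 1.5-fold of its control mean. In the wild-type line the ratios of group means were close for both forms. Both forms were higher in each pair, but the form that rose more differed between the pairs. The pair ratios were 1.38 and 1.98 for the form with the exon and 1.81 and 1.26 for the form without it. In bulk RNA, a change in the share of cells that carry a form and a change in its amount per cell cannot be told apart.

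**Figure D4:**
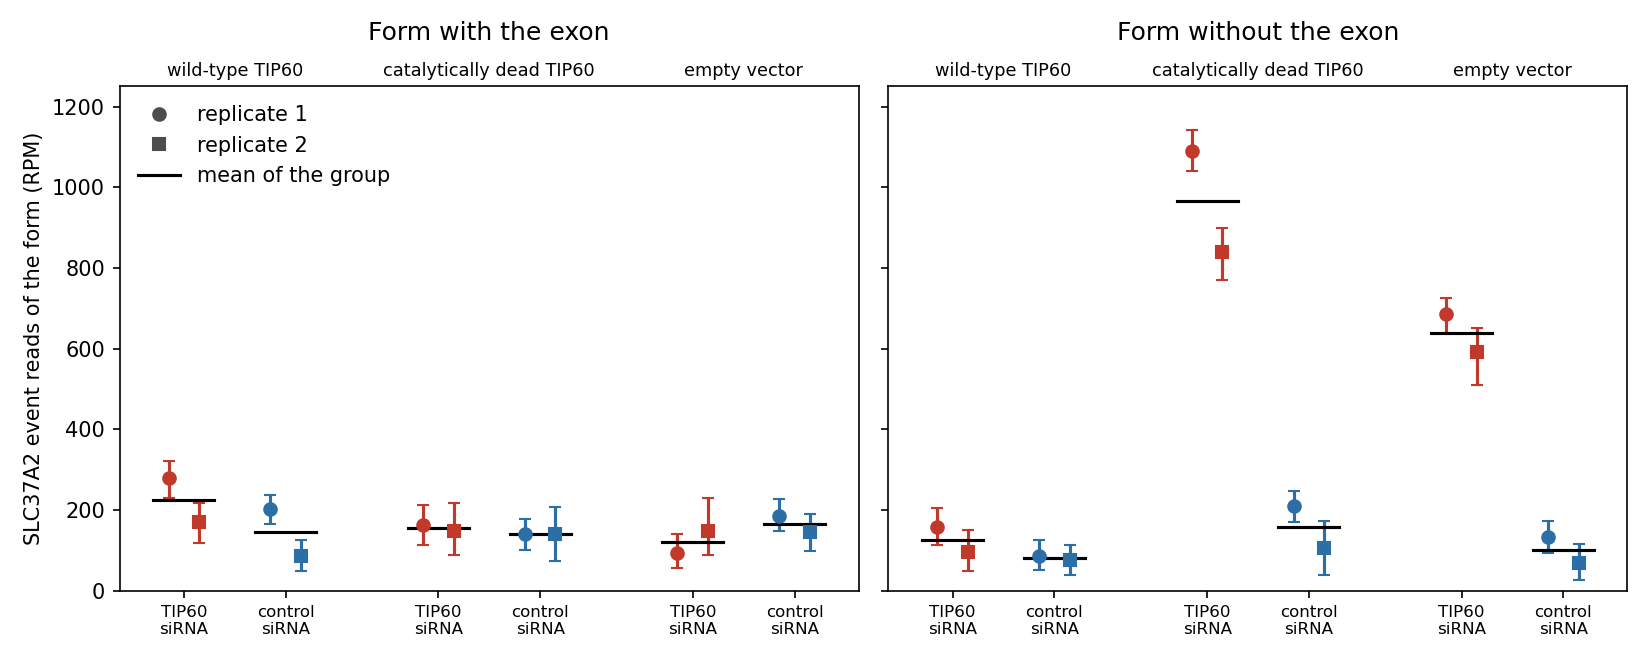
SLC37A2 event reads (RPM) divided between the form with the exon (left) and the form without it (right) by the inclusion level, in the 12 libraries. Bars carry the 95% interval of inclusion alone and black lines are group means; the form without the exon averages 965.0 RPM with TIP60 siRNA against 157 RPM with control siRNA in the catalytically dead line and 639 RPM against 101 RPM in the empty-vector line, while the form with the exon averages 121 to 224 RPM in all 6 groups.

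Among mesenchymal markers, FN1, the gene of fibronectin, was higher with TIP60 siRNA in each same-number pair, while ZEB1 and ZEB2 went either way. Of 7 such markers, FN1, ZEB1 and ZEB2 had a listed event and VIM, CDH2, TWIST1 and COL1A1 had none. Their summed event reads were 819 to 2490.3 RPM with TIP60 siRNA against 239 to 827 RPM with control siRNA in the catalytically dead line. They were 319 to 1254 RPM against 138 to 574 RPM in the empty-vector line, and 35.4 to 573 RPM against 21.9 to 346 RPM in the wild-type line. Nearly all of these reads were on FN1. The TIP60-siRNA library had the higher FN1 value in each same-number pair, with 2469 and 819 RPM against 816 and 237 RPM in the catalytically dead line, 1254 and 316 RPM against 567 and 124 RPM in the empty-vector line, and 561 and 34.1 RPM against 338 and 21.3 RPM in the wild-type line. ZEB2, a repressor of epithelial genes, had 0 RPM in both TIP60-siRNA libraries of the empty-vector line against 5.59 and 9.50 RPM in its control libraries. Its relative ZEB1 had 0 and 3.03 RPM against 1.40 and 4.38 RPM there. In the catalytically dead line ZEB2 had 11.8 and 0 RPM against 8.66 and 1.92 RPM, and ZEB1 9.21 and 0 RPM against 1.92 and 0.638 RPM. In the wild-type line ZEB2 had 0 and 0 RPM against 5.55 and 0 RPM, and ZEB1 12.3 and 1.34 RPM against 2.52 and 0.664 RPM. Each ZEB1 or ZEB2 value rested on at most 27 reads. Epithelial markers summed to 3748 to 4143 RPM with TIP60 siRNA against 2667 to 3114 RPM with control siRNA in the catalytically dead line, while the ranges overlapped in the other lines. The part of these markers in the SLC37A2 result was not tested.

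Other genes of glucose 6-phosphate transport and use gave few events. Of 13 genes, SLC37A3, SLC37A4 and the glycolytic isomerase GPI had 5 events listed in all libraries, and 0 of the 5 were called for event reads in any line, with or without the block, where 2.84% of all events were called with it in the catalytically dead, 3.08% in the empty-vector and 0.02% in the wild-type line. Their median log2 difference was -0.60 in the catalytically dead, -0.14 in the empty-vector and -0.55 in the wild-type line, against -0.14, -0.09 and -0.05 over all events. With 5 events nothing is read from either. SLC37A4 and GPI had events with enough reads for inclusion, and none was called.

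Cassette exons known to switch between epithelial and mesenchymal cells had 41 tested events in 21 of 44 genes. An exon of MARK3, a microtubule affinity-regulating kinase, fell by 0.42 in the catalytically dead line (limma adjusted p = 0.0138) and by 0.365 in the empty-vector line (adjusted p = 0.0353). It was the only event called in each of these lines (0.0371% of 2695), and none was called in the wild-type line (0%), where 116 events had an unadjusted p under 0.05 in limma. There the MARK3 exon averaged 0.065 with TIP60 siRNA and 0.285 with control siRNA, also lower, and the siRNA effects on it were not shown to differ between lines (limma adjusted p = 1 for wild-type minus empty vector and for catalytically dead minus wild-type). With the block 9 of 2695 events were called lower in the catalytically dead line (0.334%), 3 in the empty-vector line (0.111%) and 4 in the wild-type line (0.148%). Among them an exon of ARHGAP17 fell by 0.52 in the catalytically dead line (limma adjusted p = 0.00435), by 0.44 in the empty-vector line (0.0119) and by 0.525 in the wild-type line (0.0041). An exon of ABI1, an adaptor of actin assembly, fell by 0.46 in the catalytically dead line with the block (limma adjusted p = 0.0464). Its means were also lower in the other lines, at 0.335 with TIP60 siRNA and 0.725 with control siRNA in the wild-type line and at 0.36 and 0.74 in the empty-vector line. The median of the 41 events was -0.03, -0.02 and 0 in these lines, against -0.01, -0.005 and -0.005 over all tested events. For event reads none of the 83 events in 32 of these genes was called without the block. With it an event of CTNND1, the adherens junction protein p120-catenin, fell by 0.72 on the log2 scale in the empty-vector line (limma adjusted p = 0.0271), and one of PLOD2, a collagen lysyl hydroxylase, fell by 2.40 in the catalytically dead line (limma adjusted p = 0.0349). That is 1 of 83 events in each of these lines, against 3.08% of all events in the empty-vector and 2.84% in the catalytically dead line. Group means of both events were also lower with TIP60 siRNA in the other lines, where neither was called. The PLOD2 event averaged 20.3 ± 26.5 RPM with TIP60 siRNA in the catalytically dead line (SD, n = 2), so its libraries differed widely.

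Splicing regulators of such exons had 12 events in 7 of 13 genes (ESRP1, RBFOX2, PTBP1, MBNL1, MBNL2, RBM47 and KHDRBS1). None was called for event reads in any line. Their median log2 difference was -0.23 in the catalytically dead, -0.27 in the empty-vector and -0.07 in the wild-type line, against -0.14, -0.09 and -0.05 over all events. A negative value was found for 12 of 12, 12 of 12 and 6 of 12 events in that order of lines. The median over all events was negative too, and events of the same gene can share reads. Nothing is therefore read from these counts. With the block none of the 12 events was called either.

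The exons whose levels followed SLC37A2 most closely were found among 255 events of other genes whose group means ranged over at least 0.2. Over the 12 libraries, each centred on its replicate set, the highest Pearson r was 0.88 for TARBP2, a double-stranded RNA-binding partner of Dicer. Next came ITGA6, a laminin-binding integrin subunit (0.86), POMT1, a protein O-mannosyltransferase (0.86), SIRT3, a mitochondrial deacetylase (0.83), and BCLAF1 (0.82). Without centring the values were 0.77, 0.82, 0.86, 0.79 and 0.82. The lowest were DEPDC1 (-0.83), FLAD1, the FAD synthase (-0.80), and HNRNPA2B1, a pre-mRNA binding protein (-0.72). The libraries share replicate set, depth and groups, so that r describes likeness and carries no p.

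The POMT1 exon (chromosome 9, 131504189 to 131504340) averaged 0.615 with TIP60 siRNA and 0.87 with control siRNA in the wild-type line, 0.35 and 0.65 in the catalytically dead line, and 0.265 and 0.77 in the empty-vector line. The ITGA6 exon (chromosome 2, 172501772 to 172501901) averaged 0.83 with TIP60 siRNA and 0.915 with control siRNA in the wild-type line, 0.605 and 0.925 in the catalytically dead line, and 0.685 and 0.93 in the empty-vector line. The order of these means was largely set by choosing exons for their likeness to SLC37A2.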

How the data were processed

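The submitters' processing notes name STAR and hg38, without versions. Per the file headers, the deposited values are MISO summaries of each event: the inclusion level as a fraction from 0 to 1 (posterior mean) with its interval bounds, taken as 95%, and the numbers of reads that fit only 1 form, both or neither. The deposited read classes are strings of raw read numbers, and their totals per library give the depth.

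Exons were placed with GENCODE 29. Fractions of events with at least 10 isoform-specific reads in each library, and log2(RPM + 0.5) of event reads of events listed in all 12, were each modelled in limma 3.58.1 (R 4.3.3) on a factor of 6 groups, with empirical Bayes trend and robust options, for 11 comparisons. P-values are two-sided, adjusted within each comparison over every event by Benjamini-Hochberg and called under 0.05. Fold changes on the log2(RPM + 0.5) scale understate changes of low events. Deviations of same-numbered libraries from their group means correlated in all 15 pairs of groups (r 0.71 to 0.78 for inclusion, 0.58 to 0.90 for event reads), so the numbers pair the libraries. The exon, lists, markers and rules were chosen with earlier results of these data known. The rule named SLC37A2 and KAT5, list members called, and the 5 highest and 3 lowest events by likeness. Left out were events under the read minimum. Alternatives changed the block, scale, filters, pseudocount, read class and libraries.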

Additional observations from a re-analysis of the deposited data

How the results depend on the processing

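With the replicate block 4 (wild type), 10 (catalytically dead) and 4 (empty vector) events were called for inclusion between TIP60 siRNA and control siRNA, against 0, 1 and 1 without it. For event reads it called 1, 142 and 154 events in the same lines, against 0 in each. The SLC37A2 log2 differences in event reads passed only with the block: 1.92 in the catalytically dead line, 1.54 in the empty-vector line, and -1.71 for wild-type minus catalytically dead under TIP60 siRNA. The block changed no other call of SLC37A2 event reads among the 11 comparisons. With the block and median-of-ratios scaling, added after seeing the data, they were 2.07, 1.65 and -1.82, with 1, 102 and 99 events called in the wild-type, catalytically dead and empty-vector lines. With only the reads that fit both forms, also added later, 1 event was called in the catalytically dead and 2 in the empty-vector line. With the block as well, 39 and 51 were called, and SLC37A2 differed by 1.98 (limma adjusted p = 0.0278) and 1.63 (0.0287) in these lines, while wild-type minus catalytically dead under TIP60 siRNA was not called (-1.74, adjusted p = 0.0896).

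For inclusion, fitting only the libraries of the comparison, or log2 odds, left 0 events called in the catalytically dead and empty-vector lines. No read minimum left 0 in the empty-vector line, and a minimum of 20 reads gave 2 in the catalytically dead line. The plain ratio of specific reads called 2, 12 and 5 in the wild-type, catalytically dead and empty-vector lines. With that ratio the SLC37A2 difference in the catalytically dead line was -0.48, its excess over the empty-vector effect 0.036 and over the wild-type effect -0.49. Under control siRNA that ratio put the catalytically dead line -0.082 from the empty-vector line. The cause of these changes was not tested.

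Leaving out 1 library at a time gave SLC37A2 inclusion differences (TIP60 siRNA minus control siRNA) of -0.06 to 0.11 in the wild-type and -0.43 to -0.26 in the catalytically dead line. The wild-type sign turned without its control library 2. The wild-type effect exceeded the empty-vector effect by 0.41 to 0.58, the catalytically dead effect exceeded it by 0.04 to 0.21, and catalytically dead minus wild-type was -0.455 to -0.285. Under control siRNA, inclusion in the wild-type line minus empty vector was -0.10 to 0.07. It was positive without wild-type control library 2, and also without empty-vector control library 2 (0.035). Catalytically dead minus empty vector was -0.23 to -0.06. Events called for inclusion numbered 0 to 2, 0 to 8 and 0 to 7 in the wild-type, catalytically dead and empty-vector lines. Event reads of SLC37A2, over fits with and without the block, differed by 1.67 to 2.18 in the catalytically dead and 1.25 to 1.82 in the empty-vector line, and by -2.06 to -1.35 for wild-type minus catalytically dead under TIP60 siRNA. The difference in the wild-type line was 0.24 to 1.07, the wild-type minus empty-vector effect -1.30 to -0.47, and catalytically dead minus wild-type 0.86 to 1.69; none was called in these fits. Under control siRNA the wild-type line differed from empty vector by -0.69 to 0.14 (0.01 without empty-vector control library 1, 0.14 without wild-type control library 2). The catalytically dead line differed by -0.12 to 0.45 (-0.12 without empty-vector control library 2, -0.09 without its own control library 1). Events called for event reads, with and without the block, numbered 0 to 5, 0 to 279 and 0 to 263 in the wild-type, catalytically dead and empty-vector lines.

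Limits are the 2 libraries a group and the 12 to 191 isoform-specific reads on the exon per library. The pairing rests on replicate numbers whose meaning the labels do not give.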
